A study of Mus musculus with 3 samples.

Results

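The secretase genes described here encode proteases that cleave amyloid precursor protein (APP) and its homologs, together with subunits of the gamma-secretase complex. Rows were taken from the deposited expression table when the gene symbol was 1 of 9 names, and all 9 were found among the 17583 listed genes. They comprise the alpha-secretases Adam9, Adam10 and Adam17, the beta-secretases Bace1 and Bace2, and the gamma-secretase genes Psen2, Ncstn, Aph1a and Psenen. RNA was recovered from hearts of 3 mice of genotype Cdh5-CreERT2;Rpl22tm1.1Psam, called EC-RiboTag, in which tamoxifen-induced Cre puts a hemagglutinin tag on the ribosomal protein RPL22 of endothelial cells. Tagged ribosomes were immunoprecipitated from homogenized tissue and the RNA on them was read from one end for 72 bases. The Cdh5 promoter is active throughout the endothelium, endocardium and lymphatic vessels included, so these libraries pool all such cells. Per the labels, coronary ligation preceded collection of the hearts by 7 days, whereas the RiboTag methods of the study mention no infarction. Library titles include Rz, and the study uses RZ, in capitals, for the remote zone of infarcted hearts. No definition accompanies the titles themselves. The study describes RNA taken from the remote zone, and from other zones, of infarcted EC-RiboTag hearts for a PCR experiment, and whether the sequenced RNA came from whole hearts or from the remote zone was not settled. The mice were on a C57BL/6 background and the labels give no age or sex.

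All 3 libraries belong to 1 group, and no input or untagged library was analysed here, so the data give levels, ratios between genes and the spread between mice, but no change with a condition. The deposited values are read counts divided by a size factor for each library and rounded to whole numbers, called normalized counts below. Duplicate reads were removed by the authors before counting, so single-end reads with the same start count as 1. Values of well-covered genes can therefore be too low, by an amount that was not tested. Gaps and pile-ups among the rounded values showed that 1 read was worth 0.976, 1.06 and 0.961 normalized counts in mice 1, 2 and 3, which corresponds to about 7321000, 6753000 and 7564000 reads. The 10 endothelial markers checked were all present, with summed normalized counts between 24986 and 26097. The 10 cardiomyocyte markers were also all present and summed to between 20679 and 24237, the 8 fibroblast markers to between 3047 and 4186, and the 7 of 8 leukocyte markers found to between 447 and 681, with Cd79a at 0 in at least 1 mouse. Which cells the secretase transcripts came from was not tested.

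APP and its homolog APLP2 are single-pass membrane proteins that are cut in sequence. An alpha-secretase, a zinc metalloproteinase of the ADAM family, releases the large soluble ectodomain. In APP it cuts within the amyloid-beta region, which APLP2 lacks, whereas the aspartic protease BACE1 cuts at the amino-terminal end of that region. The stub left in the membrane is then cleaved by gamma-secretase, an aspartic protease complex of a presenilin, nicastrin, an APH-1 protein and PEN-2. The same enzymes act on Notch receptors, cadherins and other endothelial surface proteins.

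The catalytic sites of the proteases are written into short stretches of their coding sequence, which are shown because their residues define the protease class of each enzyme. In the canonical transcripts of GENCODE M39 (build GRCm39), the 3 alpha-secretase genes each held 1 in-frame match to the zinc-binding motif of the metalloproteinases, a run of 33 bases. Capitals mark the codons of the zinc-binding histidines, the catalytic glutamate and the conserved glycine. Only the sense strand was searched.
Adam9: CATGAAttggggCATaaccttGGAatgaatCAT
Adam10: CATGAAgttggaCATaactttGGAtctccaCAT
Adam17: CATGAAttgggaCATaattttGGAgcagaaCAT
The Adam9 stretch lies at chr8:25480342-25480374 on the minus strand, in exon 11 of 22, and that of Adam17 at chr12:21386733-21386765 on the minus strand, in exon 11 of 19. The Adam10 stretch is split by an intron between exons 9 and 10 of 16, within chr9:70661578-70668867 on the plus strand. Adam10 and Adam17 shared 26 of these 33 bases, Adam9 and Adam17 shared 25, and Adam9 and Adam10 shared 23. The motif was rare, with a match in 0.295% of 14220 coding transcripts of the table. Of 11 measured ADAM genes, 8 held it, and Adam11, Adam22 and Adam23 did not.

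The beta-secretase genes each held 2 in-frame matches to the aspartic protease motif, in capitals below with 9 flanking bases on either side. A match was found in 4.39% of the coding transcripts. The presenilin aspartate motif, found in 13.6% of them, matched at 2 places in Psen2, of which the one at codon 363 is shown.
Bace1, codon 93: atcctggtgGACACGGGCAGTagtaacttt
Bace2, codon 106: attcttgtgGACACTGGAAGCagtaacttc
Bace1, codon 289: agcattgtgGACAGTGGGACCaccaacctt
Bace2, codon 299: gccattgtgGACAGTGGCACCacgctcctg
Psen2, codon 363: gtgaagctcGGCctgGGAGACttcatcttc
The Bace1 stretches lie on the plus strand at chr9:45764192-45764221 in exon 2 and at chr9:45769713-45769742 in exon 6. Those of Bace2 also lie on the plus strand and in exons 2 and 6, at chr16:97200840-97200869 and chr16:97216294-97216323, and both genes have 9 exons. The Psen2 stretch lies at chr1:180056492-180056521 on the minus strand, in exon 10 of 11. Bace1 and Bace2 shared 24 of 30 bases at the first site and 23 of 30 at the second. Despite this likeness, none of the 72-base windows of the canonical transcripts of Adam9, Adam10, Adam17, Bace1, Bace2, Psen2 or Ncstn had an exact copy in an annotated transcript of a gene at another place. Near copies, windows shorter than 72 bases, as left by trimming, and the rest of the genome were not searched. Aph1a differed, since 1631 of its 1688 windows (96.62%) had such a copy, among others in a processed pseudogene on chromosome 1. Reads that map to several places were removed by the authors, and the level of Aph1a is therefore uncertain. Only 57 windows lacked a copy, fewer than the normalized counts of this gene in any mouse. For Psenen, 24.79% of the windows had a copy, all of them in the processed pseudogene Psenen-ps.

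The alpha-secretase genes were the most uniform class between mice. Adam10 (ENSMUSG00000054693, chr9:70586279-70687511, plus strand), the main constitutive alpha-secretase, was measured at 1733, 1814 and 1828 normalized counts in mice 1, 2 and 3, in that order. Its mean of 1792 ± 51.3 (SD, n = 3) was the highest deposited value of the 9 genes. Adam17 (ENSMUSG00000052593, chr12:21373510-21423633, minus strand), the TNF-alpha converting enzyme, had 1203, 1153 and 1143. Mouse 1 was the lowest for Adam10 and the highest for Adam17 and Adam9, by small margins. Adam9 (ENSMUSG00000031555, chr8:25439627-25506943, minus strand) had 1091, 1035 and 1025. Summed over the 3 genes, the alpha-secretases gave 4027, 4002 and 3996 normalized counts, a coefficient of variation (CV, the SD as a percentage of the mean) of 0.41%. Their single CVs were 3.39% for Adam9, 2.86% for Adam10 and 2.76% for Adam17, close to the 3.08%, 2.36% and 2.93% that counting of reads alone gives at these levels. The CV of the sum is lower than each of these, since in mouse 1 a lower Adam10 offset a higher Adam9 and Adam17. The counting figure assumes independent reads and takes no account of duplicate removal, which can lower the spread of well-covered genes.

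The beta-secretase genes behaved differently from each other. Bace2 (ENSMUSG00000040605, chr16:97157942-97244136, plus strand), which cleaves APP within the amyloid-beta region and other surface proteins, was far less even, at 1019, 821 and 1586 normalized counts for mice 1 to 3. Mouse 3 was the highest and exceeded mouse 2 by 1.93-fold. Bace1 (ENSMUSG00000032086, chr9:45749878-45775697, plus strand), the enzyme that starts amyloid-beta formation in neurons, had 476, 517 and 546, within 1.15-fold of each other. The ranges of the 2 genes did not overlap, with Bace2 above Bace1 in each mouse. Exons of genes on the opposite strand cover 68.94% of the canonical Bace1 transcript, and the authors counted reads by strand.

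Among the gamma-secretase genes, Ncstn was the highest and the steadiest. Ncstn (ENSMUSG00000003458, chr1:171893580-171910362, minus strand), which encodes the substrate-binding subunit nicastrin, had normalized counts of 1012, 1013 and 1036. Its CV of 1.33% was below the 3.13% of counting alone, a figure that leaves out the removal of duplicate reads. Psen2 (ENSMUSG00000010609, chr1:180054569-180091003, minus strand), which encodes presenilin-2, a catalytic subunit, had 388, 327 and 504. As for Bace2, mouse 2 was the lowest and mouse 3 the highest, here by 1.54-fold. Aph1a (ENSMUSG00000015750, chr3:95801281-95805600, plus strand), which encodes a scaffold subunit, had 438, 391 and 402. Psenen (ENSMUSG00000036835, chr7:30261288-30263052, minus strand), which encodes the small subunit PEN-2 needed for maturation of the complex, had 116, 113 and 104, the lowest values of the 9 genes. Its transcript is also the shortest, with 1019 bases.

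**Figure D1:**
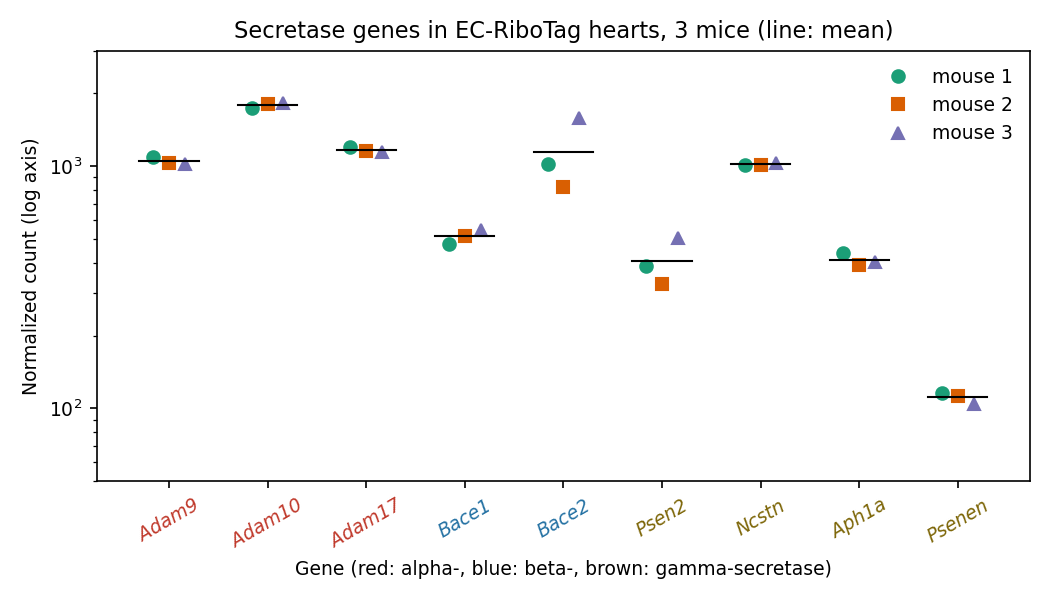
Normalized counts (log axis) of the 9 secretase genes in each of the 3 EC-RiboTag mice, with symbols for mice and a line at the mean. Bace2 spreads from 821 to 1586 and Psen2 from 327 to 504, while the 3 mice nearly coincide for Adam10, Adam17 and Ncstn.

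Only reads with different starts are counted, so the number of start positions limits the value of a gene. Duplicate removal can therefore lower well-covered genes more than others, and Adam10 held 0.385 normalized counts per base against 0.078 for Bace1. No correction was made for this. Reads per molecule grow with transcript length, so genes were compared with each other per kilobase of their canonical transcript. On this scale, Adam10 led with 385.2 ± 11.03 normalized counts per kilobase (SD, n = 3), followed by Ncstn with 351.7 ± 4.68, Adam17 with 260.6 ± 7.18, Adam9 with 252.2 ± 8.54 and Aph1a with 233.3 ± 14.0. Lower values were found for Psen2 with 203.5 ± 45.0, Bace2 with 145.1 ± 50.5, Psenen with 108.9 ± 6.13 and Bace1 with 78.0 ± 5.35 per kilobase. The median of the 9 genes was 233.3 per kilobase, which is the value of Aph1a, whose level is uncertain. For 14395 genes (known length, mean of 10 or more) the median was 106.5, and 8 of the 9 lay above it. Psenen did so by less than its SD, and in mouse 3 it had 102.1, below that median. Adam10 ranked 1274, Ncstn 1581, Adam17 2873 and Adam9 3038 of the 14395 genes, whereas Bace2 ranked 5784 and Bace1 8495. The ranks moved with the length chosen. By the length of all exons, Adam10 ranked 401, Adam9 920, Ncstn 1701, Adam17 2847, Bace2 2865 and Bace1 5867. By coding length, Bace2 with rank 2435 of 12957 stood above Ncstn with 4174, Adam17 with 4259 and Adam9 with 4939, and below Adam10 with 2159. The substrate genes stood at 730.1 ± 20.5 per kilobase for Aplp2 and 356.5 ± 19.4 for App. By the length of all exons they stood at 419.2 for Aplp2 and 160.6 for App. The place of Adam10 relative to them thus depended on the length, and undivided, the mean of App, 3059, was above that of Aplp2, 2703, and both were above that of Adam10.

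**Figure D2:**
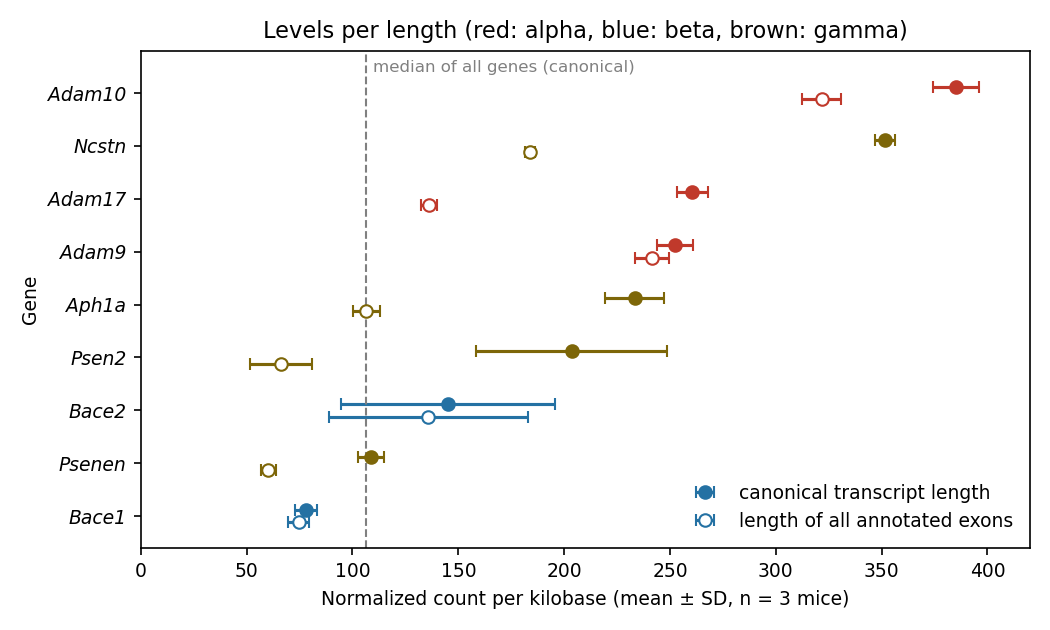
Normalized count per kilobase (mean ± SD, n = 3 mice) of the 9 secretase genes, divided by the length of the canonical transcript (filled) or of all annotated exons (open), with a dashed line at 106.5, the median of all genes by canonical length. Adam10 is highest by both lengths, and Psen2 falls from 203.5 to 66.2 when all exons are counted.

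Most neighbours in this order kept their places in every mouse. Of the 8 neighbouring pairs, 6 had the same order in all 3 mice. Aph1a and Psen2 changed order in mouse 3, with a log2 ratio per kilobase of 0.22 ± 0.32 (SD, n = 3), and Bace2 and Psenen changed order in mouse 2, with 0.36 ± 0.56. For each pair of the same order the exact sign-flip permutation test gave a two-sided p of 0.25, the smallest that 3 mice allow, so no ratio here can pass 0.05 (adjusted p = 0.333 over the 8 pairs). Adam17 exceeded Adam9 by a log2 ratio of only 0.05 ± 0.01, and the order reversed to -0.82 when all annotated exons were taken as the length. By that length Psen2 also fell below Bace2 and Psenen fell below Bace1, with -0.30 in place of 0.48.

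Of the 7 further pairs compared per kilobase, 6 lay within a class and 1, Adam10 and Bace2, across classes, and each pair had the same order in all 3 mice (exact sign-flip permutation test, two-sided p = 0.25 for each, adjusted p = 0.25). Bace2 exceeded Bace1 by a log2 ratio of 0.84 ± 0.44 (SD, n = 3), which is 1.79-fold, with single values of 0.84, 0.41 and 1.28 in mice 1, 2 and 3. The ratio was larger than its spread, and this spread was larger than that of the ratios among the alpha-secretases. Adam10 exceeded Adam9 by 0.61 ± 0.09 and Adam17 by 0.56 ± 0.08 on the log2 scale. Adam10 also exceeded Bace2 by 1.46 ± 0.47, or 2.76-fold. With the coding length in place of the transcript length this value was 0.16, and the order was no longer common to the mice, with Bace2 above Adam10 in mouse 3 (exact sign-flip permutation test, two-sided p = 0.75). Ncstn exceeded Psenen by 1.69 ± 0.10, Psen2 by 0.81 ± 0.30 and Aph1a by 0.59 ± 0.09, and the last ratio reversed to -0.10 by coding length.

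Summed per kilobase, the alpha-secretase genes reached 903.3, 896.1 and 894.5 in mice 1, 2 and 3, and the beta-secretase genes 201.9, 182.9 and 284.6. The alpha-secretase sum was 4.10-fold the beta-secretase sum, with a log2 ratio of 2.04 ± 0.34 (SD, n = 3) and the same direction in each mouse (exact sign-flip permutation test, two-sided p = 0.25, adjusted p = 0.375 over 3 class pairs). The excess was smallest in mouse 3, with 1.65, where Bace2 was highest. Bace2, which cleaves APP within the amyloid-beta region, made up 145.1 of the mean beta-secretase sum of 223.1 per kilobase. The ratio thus does not set alpha-secretases against BACE1 alone. The direction was kept by every length used, but the log2 ratio was 1.76 by exonic and 0.66 by coding length. The coding sequence makes up 1503 of 6578 bases of the Bace1 transcript and 1542 of 7868 bases of that of Bace2. The 4 gamma-secretase genes summed to 906.0, 846.1 and 940.1 per kilobase, 0.998-fold the alpha-secretase sum, with no common direction among mice (exact sign-flip permutation test, two-sided p = 1.0). By exonic length the gamma-secretase sum was lower, with a log2 ratio of -0.75 to the alpha-secretase sum, and without division by length this ratio was -1.04. Per kilobase but without Aph1a, whose level is uncertain, it was -0.44, an alternative chosen after seeing the data. Aph1b and Aph1c are not part of the gamma-secretase sum. The gamma-secretase sum was 4.09-fold the beta-secretase sum per kilobase, with a log2 ratio of 2.03 ± 0.27 and the same direction in each mouse. This ratio was 1.01 by exonic and 0.65 by coding length. Without division by length it was 0.26 (exact sign-flip permutation test, two-sided p = 0.5), and the beta-secretase sum of 2132 exceeded the gamma-secretase sum of 2046 in mouse 3. These sums add transcripts of separate enzymes and of subunits and do not count complexes.

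Of the 9 genes, 8 had a mean of at least 200 normalized counts and could be read for variation between mice. In the whole table, 8.0% of the 9358 genes at this level had a CV over 20%. Among the secretase genes, 2 of the 8 did, Bace2 with 34.8% and Psen2 with 22.1%, while the median CV of the 8 was 4.69% against 7.37% for all genes at this level. Counting alone gives 2.96% for Bace2 and 4.96% for Psen2. Both genes were lowest in mouse 2 and highest in mouse 3. Of the 749 genes at this level with a CV over 20%, 119 had this order. These 119 are 1.27% of all 9358 genes at this level, a share set by the CV threshold as well as by the order. Over 3 mice few orders are possible, and the shared order is a description only. Both calls rest on mouse 3, without which the CV was 15.2% for Bace2 and 12.1% for Psen2. Without mouse 2 it was 30.8% and 18.4%. Among the alternative scaffold subunits, which take the place of APH-1A in other forms of the complex, Aph1b had normalized counts of 382, 297 and 446 and Aph1c had 25, 16 and 31. The order of mice was again the same, with CVs of 19.9% and 31.5%, but Aph1c rests on few reads, and both genes share 688 windows of read length.

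**Figure D3:**
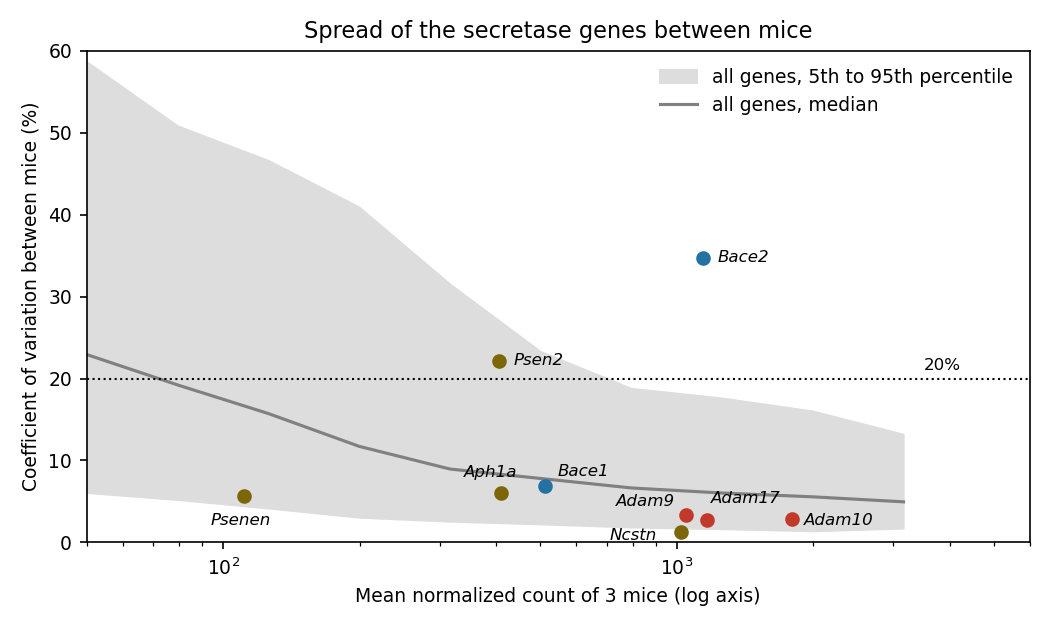
CV between the 3 mice against the mean normalized count (log axis) for the 9 secretase genes, over the median and the 5th to 95th percentile of all genes of similar level. Bace2 lies far above the shaded band at 34.8%, Psen2 lies inside it at 22.1%, and the other 7 genes lie between 1.33% and 6.86%.

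Markers of cell types moved between these libraries as well. The 6 endocardial markers were all highest in mouse 3 and summed to normalized counts of 6006, 5261 and 7979, a CV of 21.9% with the order of mice seen for Bace2 and Psen2. Npr3, which encodes the natriuretic peptide clearance receptor and marks endocardium, had 1589, 914 and 2228, and 3 of the 6 markers followed this order. The lymphatic list, with 7 of 7 markers present, summed to 3739, 4662 and 5421, and none of its genes was lowest in mouse 2. Mural cell markers, 7 of 7 present, summed to 1227, 1701 and 1878. Cardiomyocyte markers summed to 20679, 21339 and 24237, and 3 of the 10 were highest in mouse 3. Among these was Ttn with 7379, 7743 and 10190, whereas Myl2 had 729, 701 and 605. What sets mouse 3 apart for these genes was not tested. Venous markers summed to between 6609 and 7993 and leukocyte markers to between 447 and 681, both lowest in mouse 1. Of the 6 venous markers, 2 had the order of Bace2, among them Vwf with 1898, 1886 and 3098. Fibroblast markers were also lowest in mouse 1 as a sum, and 2 of the 8 had the order of Bace2, Dcn with 813, 579 and 1007 and Lum with 458, 309 and 618. The other fibroblast markers were each lowest in mouse 1. The 10 general endothelial markers differed by no more than 1.04-fold in sum. They are well covered, with a median of 713.1 normalized counts per kilobase, and duplicate removal can lower the spread of such genes. Whether the endothelial share of the RNA was steady was therefore not tested. The part that the endocardial or fibroblast share of the RNA plays in Bace2 and Psen2 was not tested, and a larger number of cells of a type cannot be told apart from more RNA per cell.

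**Figure D4:**
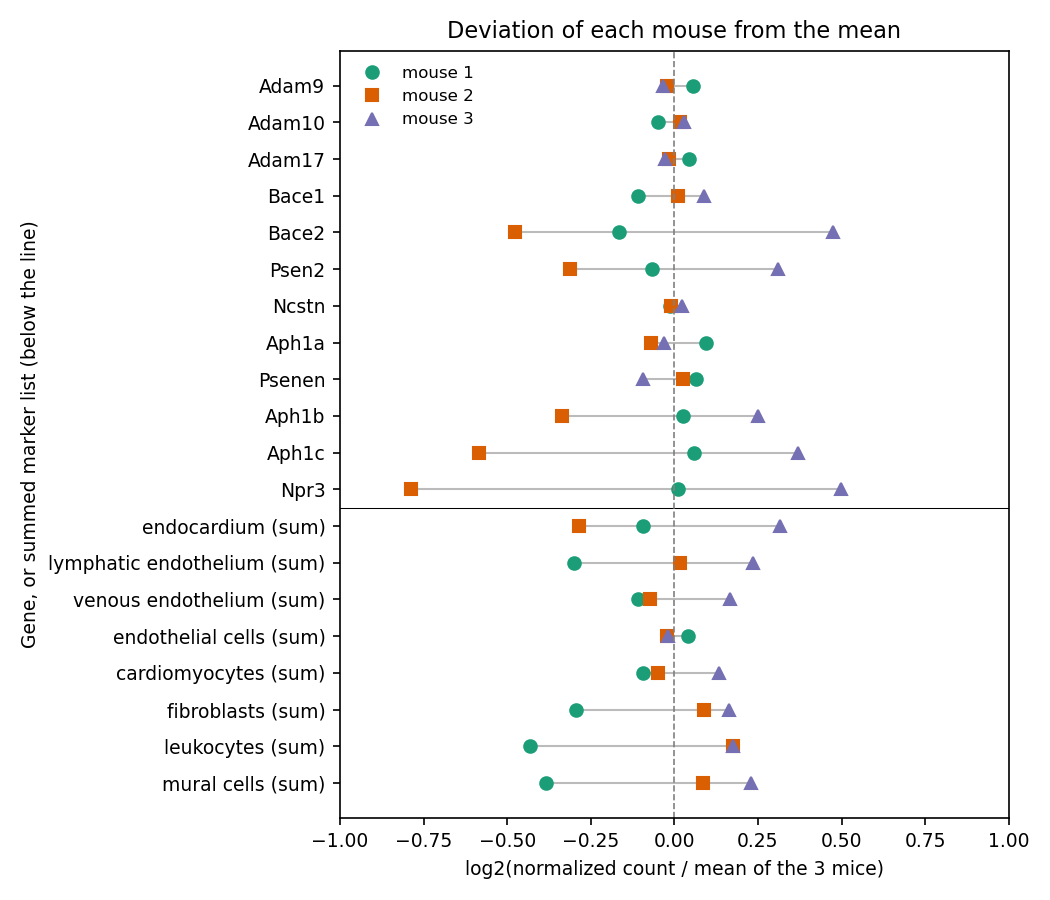
Deviation of each mouse from the mean of the 3 mice (log2 of the ratio) for the secretase genes, Aph1b, Aph1c and Npr3, and below the line for summed marker lists of cell types. Bace2, Psen2, Aph1b, Aph1c, Npr3 and the endocardial sum have mouse 2 lowest and mouse 3 highest, whereas the alpha-secretases and Ncstn cluster near 0.

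The 5 genes with the pattern most like that of Bace2 over the 3 mice, measured as the distance between centred log2 values among 9357 other genes averaging 200 or more, were Parm1, Ntn4, Bmpr1a, Gcnt1 and Meis2. Ntn4, which encodes the basement membrane protein netrin-4, had normalized counts of 406, 332 and 654, and Bmpr1a, which encodes a bone morphogenetic protein receptor, had 298, 236 and 441. The distances lay between 0.0314 and 0.0636 on the log2 scale. Over 3 mice this likeness is a description only.

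Other members of the ADAM family were mostly far below the alpha-secretases. Of 10 further genes, Adam28 and Adamdec1 were not in the table, in which each listed gene reaches at least 4 normalized counts in some mouse, and the other 8 had a median of 25.2 per kilobase. Adam15, a metalloproteinase of endothelial and other cells, was the exception with normalized counts of 2333, 2457 and 2206. It reached 825.5 ± 44.4 per kilobase of canonical transcript (SD, n = 3), above Adam10, but 293.6 per kilobase of all annotated exons, where Adam10 had 321.7. Duplicate removal can lower Adam15 more than Adam10, so the ratio between them was not settled. Adam19 followed with 127.0 ± 13.3 per kilobase, and Adam8, a leukocyte sheddase, and Adam33 were lowest with 4.28 and 12.4.

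Partners of the alpha-secretases were present with them. The iRhom genes Rhbdf1 and Rhbdf2, whose products carry ADAM17 to the cell surface, had 166.2 ± 21.7 and 203.9 ± 4.29 normalized counts per kilobase (SD, n = 3), and Frmd8, which stabilizes this complex, had 193.2 ± 5.83. All 3 means lay below that of Adam17, 260.6. Of the 6 TspanC8 tetraspanins, which escort ADAM10, 5 were listed, Tspan17 the highest with 390.0 ± 46.8 per kilobase, then Tspan15 with 289.8 ± 43.7. Tspan5 had 104.0 and Tspan33 only 4.00 per kilobase, and Tspan10 was not in the table. Furin, a convertase that removes the prodomain of ADAM and BACE proteins, had 379.0 ± 15.6 per kilobase and Pcsk7 201.8 ± 7.95, while Pcsk6 had 164.3 and Pcsk5 32.3. None of these partner and convertase genes with a mean of at least 200 passed a CV of 20%, and Tspan33 was too low to be read.

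The sheddase inhibitors included some of the highest genes of the pathway. Duplicate removal can lower the highest values most, so the order among the highest genes and their ratios to lower genes were not settled. Timp3, which inhibits ADAM17 and ADAM10, had normalized counts of 3048, 2994 and 3046, or 641.4 ± 6.48 per kilobase (SD, n = 3), above each of the 9 secretase genes. Timp2 had 461.4 ± 31.4 per kilobase, whereas Reck, a membrane-anchored inhibitor, had 100.7 and Timp1 68.0. Reck was the 1 inhibitor of 4 at the required level with a CV over 20%, with 395, 353 and 596 in the order of mice of Bace2. For gamma-secretase, Tmed10, a trafficking protein that modulates the complex, had 861.4 ± 25.8 per kilobase and Rer1, which holds unassembled subunits in the early secretory pathway, had 490.8 ± 26.1. By the length of all exons these values were 213.4 and 111.3, below the 321.7 of Adam10. Gsap and Tmed2 were lower with 62.7 and 52.0. Of the 6 genes of beta-secretase trafficking, Arf6 with 591.1 and Rtn3 with 321.9 were highest, and Gga3 with 110.9 and Gga2 with 75.05 lowest. Among 20 endothelial substrates, Flt1 and Cdh5 were highest with 713.4 and 712.8 per kilobase, and Lrp1 and Cdh2 lowest with 70.4 and 32.2. Lrp1, an endocytic receptor for APP, was the only substrate gene with a CV over 20%, with 685, 1193 and 1270 normalized counts. The median of these substrates, 345.3 per kilobase, stands beside 106.5 for all genes and 233.3 for the secretase genes, the latter being the uncertain value of Aph1a.

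**Figure D5:**
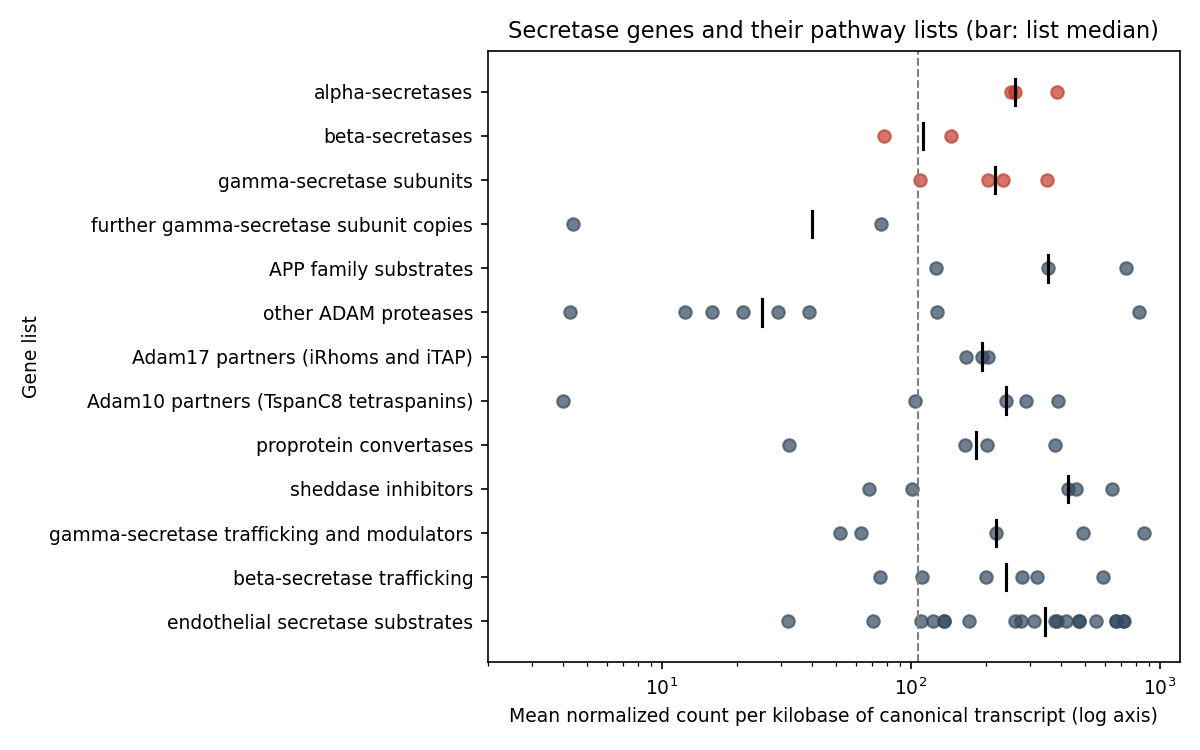
Mean normalized count per kilobase of canonical transcript (log axis) for each gene of the secretase classes (red) and of the pathway lists (grey), with a bar at the list median and a dashed line at 106.5, the median of all genes. Adam15 at 825.5, Tmed10 at 861.4 and Timp3 at 641.4 lie above the 9 secretase genes on this scale, which range from 78.0 to 385.2, but per kilobase of all exons Adam15 at 293.6 and Tmed10 at 213.4 lie below Adam10 at 321.7. Duplicate removal can lower the highest values most.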

How the data were processed

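Ribosome-associated RNA from 3 EC-RiboTag hearts was analysed. The authors trimmed reads with Trimmomatic 0.39, aligned them to mm39 with STAR 2.7.11a, removed duplicates with Picard 3.1.1 and multi-mapping, ribosomal and mitochondrial reads, counted by strand with featureCounts 2.0.4 and normalized with DESeq2 1.36.0. The deposited values are a score, namely counts divided by size factors and rounded, so no count model was run. No column of another sample was present. Lengths came from GENCODE M39, which held 17475 of 17583 genes (99.39%) and is newer than the annotation used by the authors. Genes were named by a rule: the 9 members, the 2 highest and 2 lowest genes per kilobase of each pathway list with App and Aplp2, and the 5 genes most like the member of highest CV. Markers, the genes with a CV over 20% and the ADAM genes without the motif were named outside it, after their values were seen. Members and lists were chosen with earlier results of these data known. Not every gene of the gamma-secretase complex is reported here. Ratios were taken within mice and tested by exact sign-flip permutation with Benjamini-Hochberg adjustment. The labels call the libraries biological replicates. Alternatives were a trimmed-mean scaling (trims of 30% for log ratios and 5% for levels), equal totals, other lengths, minimums and thresholds, the median, and leaving out each mouse. The read-worth, scaling and CV steps were tested on simulated data. Python 3.11.15, numpy 2.4.6, pandas 2.3.3 and matplotlib 3.10.9 were used.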

Additional observations from a re-analysis of the deposited data

How the results depend on the processing

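The levels depended on the length chosen more than on scaling or single mice. The median rank of the 9 genes, 3421 by canonical length (the rank of Aph1a), was 2865 by exonic length, 4259 by coding length and 1933 without division by length. The log2 ratio of Ncstn to Aph1a reversed to -0.10 by coding length. The ratio of the gamma-secretase to the alpha-secretase sum, near 0, lay between -0.04 and 0.04 with a mouse left out, and only without mouse 2 was it above 0. Without Aph1a, an alternative chosen after seeing the data, it was -0.44. The number of secretase genes with a CV over 20%, which was 2, lay between 0, without mouse 3, and 2 with a mouse left out, and was 1 without mouse 2. It was 1 with a mean of at least 500, which drops Psen2 from the genes tested, and 1 with a threshold of 30%. Under scaling by trimmed means or to equal totals, the ratios, the count and the 5 nearest genes of Bace2 stayed as reported within their limits. Apart from Ncstn to Aph1a, the means of the 7 ratios between genes kept their direction under each alternative run, as did those of the alpha-secretase and gamma-secretase sums to the beta-secretase sum. The order common to the mice was lost for Adam10 to Bace2 by coding length, with a mean of 0.16, and for the gamma-secretase to the beta-secretase sum without division by length, with 0.26. No paired analysis was possible because all 3 libraries belong to a single group. The depth limits Psenen, for which counting alone gives a CV of 9.49%, and Aph1c, for which it gives 20.4%.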
